A study of Mus musculus with 6 samples.

Results

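Syndecans and glypicans are the families of cell surface proteoglycans that carry heparan sulfate, and 9 of their genes (Sdc1, Sdc2, Sdc3, Sdc4, Gpc1, Gpc2, Gpc3, Gpc4 and Gpc6) were measured by RNA sequencing of mouse lens capsules 72 h and 0 h after cataract surgery. The 9 genes were taken by symbol from the 56940 genes of the count files. They comprise 4 syndecans and 5 glypicans. Of these, 8 passed the filter on low counts, and Gpc2 did not.

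The 72 h libraries came from lens capsules collected 72 h after the fiber cell mass had been removed, and the 0 h libraries from capsules collected directly after that operation. Each group held 3 libraries of 5 pooled capsules with their attached lens epithelial cells, and the strain was labelled C57BL/6 and the genotype wildtype. The second eye of a mouse was operated on 72 h after the first and both were then harvested, so the 0 h capsules came from animals whose other eye already carried a wound. The descriptions of all 6 libraries hold RUNX_Cre_N, a tag that the labels do not explain. The age of the mice is not given.

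Heparan sulfate is a long sulfated sugar chain built in the Golgi on serine residues of a core protein. Syndecans span the membrane and carry these chains on an outer domain, with a short cytoplasmic tail that reaches the cytoskeleton. Glypicans are tied to the outer leaflet by a lipid anchor. On the cell surface the chains hold fibroblast growth factors, Wnt proteins and other ligands near their receptors, and heparan sulfate is required for FGF signalling in the developing lens.

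Counts assigned to genes ranged from 8453450 to 8945397 in the 72 h libraries and from 11338820 to 12432688 in the 0 h libraries. All 8 markers of lens epithelium had counts in both groups, and their summed level, mostly the crystallin gene Cryaa, ranged from 10350 to 18830 CPM (the count divided by the TMM-adjusted size of its library) at 72 h and from 78720 to 83830 CPM at 0 h. Of the 8, 6 were called lower at 72 h, Epha2 was called higher (log2 change 0.77, edgeR adjusted p = 0.00405), and Pax6, a transcription factor of lens epithelium, was not called (643 CPM at 72 h and 684 CPM at 0 h). In bulk tissue, fewer cells of a type and less RNA per cell cannot be told apart. Markers of macrophages and monocytes summed to between 224 and 401 CPM at 72 h and between 32.0 and 49.9 CPM at 0 h. Of 14 tested markers, 11 were called higher, beside 21% called higher and 17.5% lower of all tested genes. Some of them passed the filter on low counts through their 72 h libraries alone, the group in which they are high. Examples are Itgam with 5, 3 and 0 counts and Ccr2 with 7, 0 and 0 counts at 0 h. Other markers moved too. Neutrophil markers summed to between 20.7 and 44.5 CPM at 72 h and 0.931 and 1.58 CPM at 0 h. Fibroblast and corneal stroma markers summed to between 516 and 873 CPM at 72 h and 208 and 273.5 CPM at 0 h, with members that moved in opposite directions. Col1a1, Dcn and Lum were called higher, and Pdgfra, which made up most of the 0 h sum (77.2 CPM at 72 h and 227 CPM at 0 h), was called lower (edgeR adjusted p = 0.0150). Dcn (5, 21 and 8 counts at 0 h) and Lum (0, 0 and 1) also passed the filter through their 72 h libraries alone. Summed levels were lower at 72 h for markers of lens fiber cells (1256 to 2620 CPM at 72 h, 12980 to 14580 CPM at 0 h) and photoreceptors (65.0 to 178 CPM at 72 h, 719 to 1763 CPM at 0 h). Of 6 tested pigment cell markers, 2 were called lower and 4 were not called. Their sum was 19.1 to 68.4 CPM at 72 h and 90.2 to 139 CPM at 0 h, but without Oca2 it overlapped between the groups (17.1 to 63.5 CPM at 72 h, 31.1 to 67.9 CPM at 0 h). Vascular endothelium markers, with 9.17 to 25.4 CPM at 72 h and 7.81 to 19.9 CPM at 0 h, overlapped between the groups. Mitochondrial genes took 16.6% to 25.3% of counts at 72 h and 3.75% to 3.91% at 0 h. What part these shifts had in the levels of the members was not tested. One library stood apart: 10 surface epithelium markers, mostly keratins, summed to 4648 CPM in 72 h replicate 3, against 13.4 and 107 CPM in 72 h replicates 1 and 2 and 20.0 to 51.0 CPM at 0 h.

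The comparison of 72 h with 0 h asked which cell surface proteoglycans changed in the capsule after surgery. Of the 8 tested members, Gpc1, Sdc1, Sdc3 and Sdc4 were higher at 72 h and Sdc2, Gpc3 and Gpc4 were lower, and Gpc6 was not called. Called here means an adjusted p under 0.05 by edgeR's quasi-likelihood test. Of all 15407 tested genes, 38.5% were called, 21% higher and 17.5% lower. The libraries of the groups did not overlap for any of the 8 tested members, Gpc6 included, and the same held for 53.5% of tested genes.

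**Figure D1:**
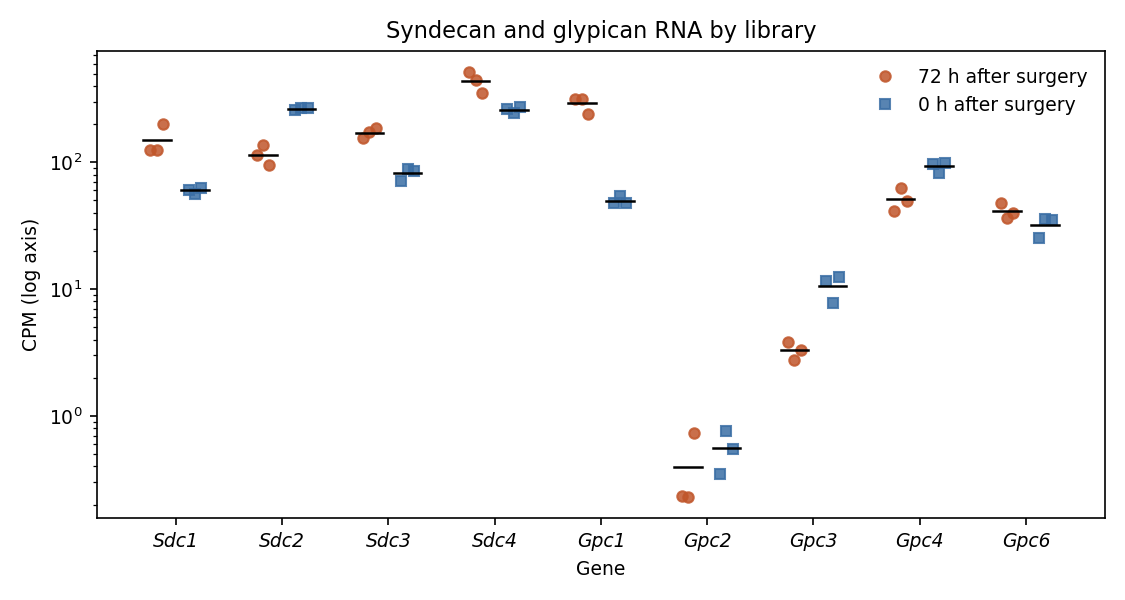
Level of each of the 9 genes in CPM on a log axis, with 1 point per library and a black line at the group mean, 72 h left of 0 h for each gene. The libraries of the groups do not overlap for any gene but Gpc2, whose libraries held 2 to 9 counts, and the same held for 53.5% of tested genes. For Gpc6, which was not called, the nearest libraries are at 36.5 CPM (72 h) and 35.8 CPM (0 h).

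The syndecans share a cytoplasmic end that binds the PDZ protein syntenin (Sdcbp), and the last 60 coding bases of the 4 mouse genes are shown because the genes share this tail while their RNA moved in opposite directions. Letters are from GENCODE M21 transcripts (GRCm38), 5′ to 3′, with the stop codon left out, and capitals mark the last 12 bases, which encode the PDZ-binding motif.
Sdc1: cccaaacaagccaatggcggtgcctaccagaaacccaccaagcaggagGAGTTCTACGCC
Sdc2: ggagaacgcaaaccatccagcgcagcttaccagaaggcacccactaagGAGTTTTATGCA
Sdc3: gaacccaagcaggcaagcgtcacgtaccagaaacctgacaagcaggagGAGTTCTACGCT
Sdc4: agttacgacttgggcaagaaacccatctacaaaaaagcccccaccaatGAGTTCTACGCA
The tails were compared position by position from their last base, without gaps. Between pairs of these genes, 9 to 11 of the 12 capital bases were identical, against 21 to 37 of all 60. By this count Sdc1 and Sdc3 had the most identical positions (37), and Sdc1 and Sdc2 the fewest (21). A stretch that is shared but shifted counts as different here, so the count does not measure how far 2 tails diverged. The longest exact run shared by transcripts of any pair among the 9 genes was 29 bases, between Sdc3 and Sdc4.

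Sdc4 (ENSMUSG00000017009), a widely expressed syndecan that works with integrins in focal adhesions on fibronectin, had the highest level per length of the family in every library. It stood at 515, 449 and 353 CPM in the 72 h libraries, against 262, 243 and 273 CPM in the 0 h libraries. The lowest 72 h library was replicate 3, and it still lay above all 0 h libraries. Mean levels were 439 ± 81.6 CPM at 72 h and 259 ± 15.1 CPM at 0 h (SD, n = 3 each). The log2 change was 0.76 ± 0.14 (SE; edgeR adjusted p = 0.00171), a 1.69-fold rise, the smallest among the members called higher.

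Sdc1 (ENSMUSG00000020592), the main syndecan of many epithelia and also a marker of plasma cells, stood at 126, 126 and 199 CPM at 72 h, against 60.7, 56.3 and 63.0 CPM at 0 h. All 72 h libraries lay above the 0 h libraries, and 72 h replicate 3 stood well above replicates 1 and 2. The means were 150.4 ± 42.4 CPM at 72 h and 60.01 ± 3.42 CPM at 0 h (SD, n = 3 each), and the log2 change was 1.32 ± 0.18 (SE; edgeR adjusted p = 0.000323). The 72 h library with the highest Sdc1 was the one with 4648 CPM of surface epithelium markers, led by the keratin gene Krt15. Without it the log2 change was 1.08 ± 0.10 (edgeR adjusted p = 1.68e-06). In 72 h replicates 1 and 2 those markers summed to 13.4 and 107 CPM, against 20.0 to 51.0 CPM at 0 h. What part surface epithelium had in the level of Sdc1 in replicate 3 was not tested. Of 8 plasma and B cell markers, 4 had no count at 72 h and 5 none at 0 h, and the only one tested was Xbp1, a regulator of secretion that many cells express, which rose. The 8 markers summed to between 75.2 and 88.1 CPM at 72 h and between 30.7 and 39.2 CPM at 0 h. Nearly all of this sum was Xbp1, which averaged 82.1 of 83.1 CPM at 72 h and 35 of 35.9 CPM at 0 h. No other marker of the list exceeded 2.08 CPM in any library. The part of plasma and B cells in the level of Sdc1 was not tested.

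**Figure D2:**
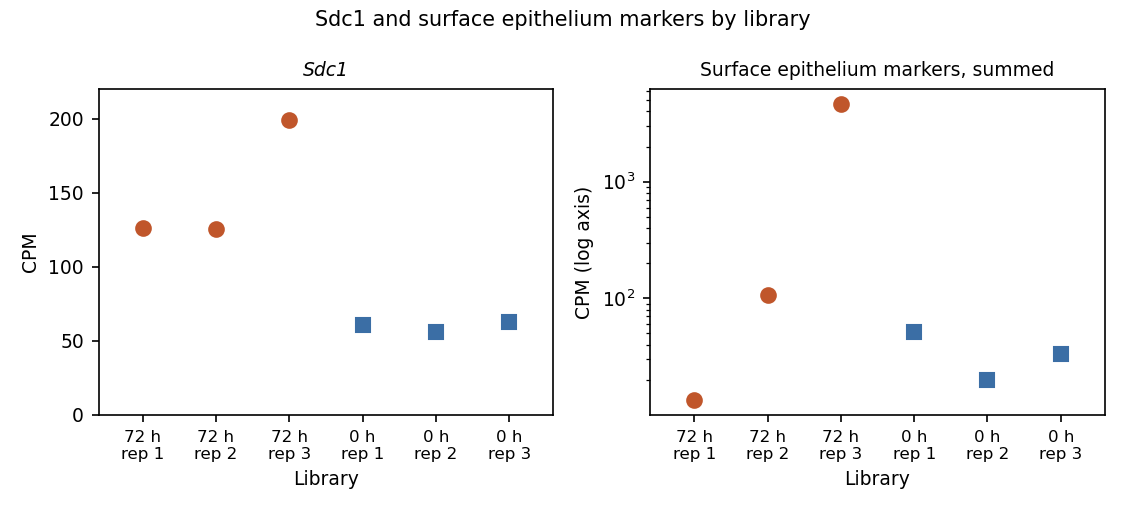
Sdc1 level in CPM (left, linear axis) and summed level of the 10 surface epithelium markers in CPM (right, log axis), with 1 point per library, circles for 72 h and squares for 0 h. Sdc1 was above every 0 h library in all 72 h libraries. The markers summed to 13.4, 107 and 4648 CPM in 72 h replicates 1, 2 and 3.

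Sdc3 (ENSMUSG00000025743), best known from the nervous system, stood at 155, 174 and 185 CPM at 72 h, against 71.5, 88.9 and 85.6 CPM at 0 h. The 72 h libraries were close to each other and all lay above the 0 h libraries. The log2 change was 1.06 ± 0.12 (SE; edgeR adjusted p = 9.82e-05), a 2.09-fold rise. The antisense gene Gm26716 overlaps 415 exonic bases of Sdc3 and held 0 to 3 counts per library. Without a stated strand setting, it is not known whether reads on these bases were counted for Sdc3.

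Sdc2 (ENSMUSG00000022261), a syndecan of mesenchymal and endothelial cells, was the only syndecan that fell. It stood at 113, 136 and 95.6 CPM at 72 h, against 257, 268 and 266 CPM at 0 h. The 0 h libraries were nearly equal, and every 72 h library lay below them. Mean levels were 115.1 ± 20.5 CPM at 72 h and 263.5 ± 5.98 CPM at 0 h (SD, n = 3 each). The log2 change was −1.20 ± 0.13 (SE; edgeR adjusted p = 7.92e-05), a 2.29-fold fall.

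Gpc1 (ENSMUSG00000034220), a glypican that binds fibroblast growth factors and can act as their co-receptor, had the largest change of the 8 tested members. It stood at 318, 318 and 238 CPM at 72 h, against 47.8, 54.1 and 47.6 CPM at 0 h. All 72 h libraries lay far above the 0 h libraries, with 72 h replicate 3 the lowest of them. The means were 291 ± 46.0 CPM at 72 h and 49.8 ± 3.70 CPM at 0 h (SD, n = 3 each), and the log2 change was 2.55 ± 0.14 (SE; edgeR adjusted p = 9.03e-07), a 5.84-fold rise. Gpc1 shares 977 exonic bases with Ankmy1 on the opposite strand, which held 5 to 31 counts per library. The strand setting of the counting is not given, so whether reads on these bases were counted for Gpc1 is not known.

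Gpc4 (ENSMUSG00000031119), a glypican known as a partner of Wnt and bone morphogenetic protein signalling, stood at 41.2, 62.5 and 49.6 CPM at 72 h, against 97.4, 82.9 and 98.3 CPM at 0 h. Every 72 h library lay below the 0 h libraries, with 72 h replicate 2 the nearest to them. The log2 change was −0.86 ± 0.16 (SE; edgeR adjusted p = 0.00222), a 1.82-fold fall.

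Gpc3 (ENSMUSG00000055653), whose loss causes an overgrowth syndrome in humans and which restrains hedgehog signalling in mice, was a weakly measured member. It had 33, 24 and 27 counts at 72 h and 134, 92 and 157 counts at 0 h, which gave 3.82, 2.77 and 3.30 CPM at 72 h, against 11.6, 7.79 and 12.4 CPM at 0 h. The groups did not overlap, and the 0 h libraries varied more. Gpc3 fell by 1.68 ± 0.36 (SE) on the log2 scale (edgeR adjusted p = 0.00434). Gpc3 and Gpc4, both lower at 72 h, are neighbouring protein-coding genes on chromosome X.

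Gpc6 (ENSMUSG00000058571), a glypican needed for skeletal growth, stood at 48.2, 36.5 and 39.7 CPM at 72 h, against 25.3, 35.8 and 35.0 CPM at 0 h. The lowest 72 h library was just above the highest 0 h library. The log2 change was 0.37 ± 0.18 (SE), and the gene was not called (edgeR adjusted p = 0.141). The change did not exceed the spread between libraries by this test, which does not show that the level stayed the same.

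Gpc2 (ENSMUSG00000029510), a glypican of developing neurons, had 2, 2 and 6 counts at 72 h and 4, 9 and 7 counts at 0 h. At 3 counts, a library of this depth gives 0.237 to 0.367 CPM, so these levels are near the limit of detection, and the gene was not tested. Its exons share 2376 bases with Gm43720 on the same strand, a gene listed at 0 counts in all 6 libraries. The labels do not state how reads falling on both genes were counted, and the level of Gpc2 is therefore uncertain.

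Gpc5, the glypican outside these 9 genes and the neighbour of Gpc6 on chromosome 14, had 0, 0 and 6 counts at 72 h and 25, 39 and 33 counts at 0 h. It was called lower (log2 change −3.43 ± 1.12 (SE), edgeR adjusted p = 0.0351). That call was lost without any single 0 h library (adjusted p = 0.0892, 0.132 and 0.108 without 0 h replicates 1, 2 and 3) and without 72 h replicate 1 (0.0786) or 2 (0.0775). It was kept without 72 h replicate 3, the library that held all 6 of the 72 h counts (0.00105). The fitted log2 change was then −7.85, a value that depends on the prior count because both remaining 72 h libraries are at 0. Gpc5 passed the filter through its 0 h counts alone, and under the stricter filter (minimum count 50) it was not tested.

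**Figure D3:**
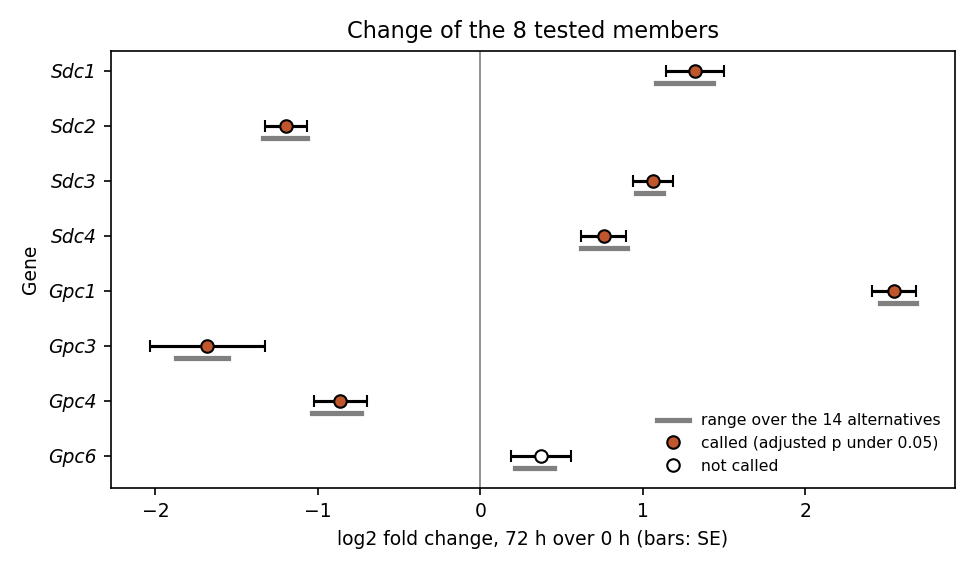
Log2 fold change of 72 h over 0 h for the 8 tested members, with the SE as a bar and the range over 14 alternative settings as a grey line below each point; filled points were called. Gpc1 lies farthest to the right, Gpc3 and Sdc2 farthest to the left, and no grey line crosses 0.

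Because the genes differ in length, levels were compared between members as CPM per kilobase of exon. At 72 h the order was Sdc4 (172 ± 32.0), Gpc1 (56.5 ± 8.91), Sdc1 (39.5 ± 11.1), Sdc2 (32.6 ± 5.80), Sdc3 (28.6 ± 2.59), Gpc4 (19.3 ± 4.04), Gpc6 (6.45 ± 0.936), Gpc3 (1.23 ± 0.195) and Gpc2 (0.0933 ± 0.0679) CPM per kb (SD, n = 3). At 0 h the order was Sdc4 (101.9 ± 5.94), Sdc2 (74.7 ± 1.70), Gpc4 (35.0 ± 3.26), Sdc1 (15.8 ± 0.897), Sdc3 (13.7 ± 1.54), Gpc1 (9.66 ± 0.717), Gpc6 (4.99 ± 0.915), Gpc3 (3.94 ± 0.913) and Gpc2 (0.130 ± 0.0487) CPM per kb. Gpc1 thus stood in the second place at 72 h and in the sixth at 0 h, whereas Sdc2 stood in the fourth place at 72 h and in the second at 0 h. Neighbours in these orders were not always apart. At 72 h the ranges of Gpc1 and Sdc1, of Sdc1 and Sdc2, and of Sdc2 and Sdc3 overlapped, and at 0 h those of Sdc1 and Sdc3 and of Gpc6 and Gpc3.

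The summed level of the 9 genes was 357 ± 30.9 CPM per kb at 72 h and 259.7 ± 9.36 CPM per kb at 0 h (SD, n = 3 each), 1.37 times as high (exact two-sided permutation p = 0.1, the smallest that 3 libraries against 3 allow). Syndecans made up 76.6% ± 1.31 of it at 72 h and 79.3% ± 0.562 at 0 h (exact permutation p = 0.1), a difference of −2.71 percentage points. Sdc2 made up 9.12% ± 1.18 at 72 h and 28.8% ± 1.25 at 0 h. Gpc1 made up 15.8% ± 1.23 at 72 h and 3.73% ± 0.393 at 0 h, and Gpc4 5.44% ± 1.19 and 13.5% ± 0.940 at the same times. Sdc4 made up 48.1% ± 5.10 at 72 h and 39.2% ± 1.06 at 0 h, a difference of 8.87 percentage points that was 4.09 when levels were not divided by length. The share of Sdc1 was 11.3% ± 4.30 at 72 h and 6.06% ± 0.165 at 0 h, a difference of 5.25 percentage points that was 2.77 without 72 h replicate 3. Exact p was 0.1 for each of these shares, and 0.129 when adjusted over the 9 members, so none could pass a threshold of 0.05 in this design.

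**Figure D4:**
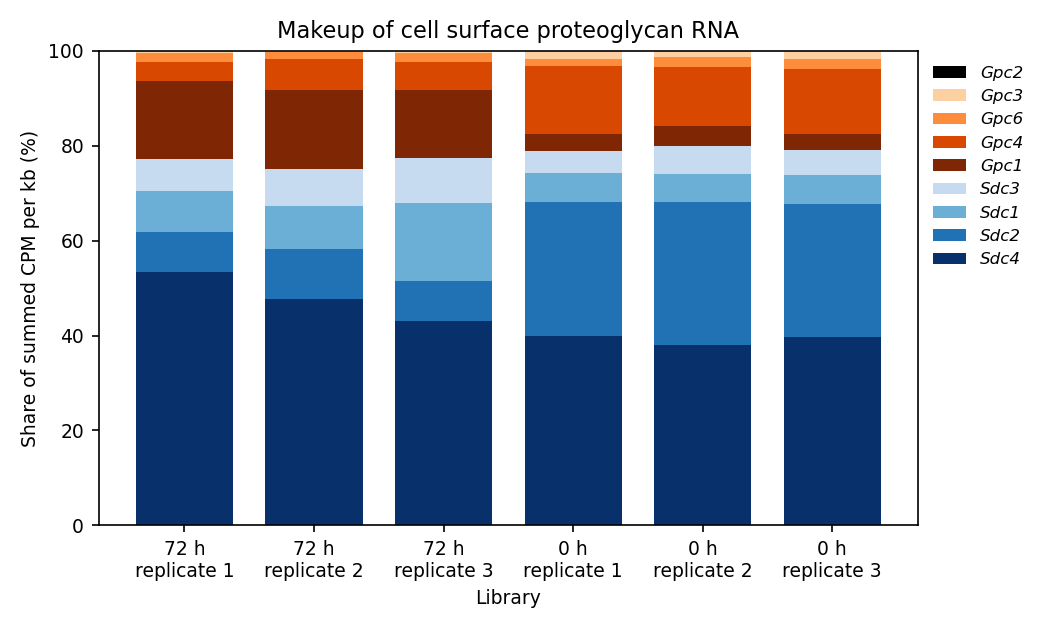
Share of each gene in the summed CPM per kb of the 9 genes, in percent, stacked for each library, 72 h libraries left of 0 h libraries; blues are syndecans and browns to oranges glypicans. The Sdc2 band is wider in the 0 h libraries and the Gpc1 band wider in the 72 h libraries, while syndecans together take 76.6% on average at 72 h and 79.3% at 0 h.

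Ratios of counts within a library do not depend on how libraries are scaled to each other. The log2 ratio of Sdc2 to Sdc4 counts averaged −1.93 ± 0.24 at 72 h and 0.02 ± 0.10 at 0 h (SD, n = 3 each), a difference of −1.95. The log2 ratio of Gpc1 to Gpc6 was 2.80 ± 0.28 at 72 h and 0.65 ± 0.24 at 0 h, a difference of 2.15. For Gpc3 and Gpc4 against Gpc6 the differences were −1.97 and −1.25. The libraries of the groups did not overlap in any of these 4 ratios. The ratio of Sdc1 to Sdc4 differed by 0.55, and by 0.18 without 72 h replicate 3, while for Sdc3 to Sdc4 and Gpc2 to Gpc6 the groups overlapped. Over the 7 ratios, exact permutation p was 0.1 (adjusted p = 0.14) for 5 and 0.3 for the other two.

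Serine followed by glycine is the dipeptide at which heparan sulfate chains are attached. In the longest complete coding sequence of each gene, a serine codon followed by a glycine codon occurred 3 times in Sdc4, 5 times in Sdc1, 8 times in Sdc3 and 3 times in Sdc2. It occurred 6 times in Gpc1, 4 times in Gpc4, 2 times in Gpc3, 5 times in Gpc6 and 7 times in Gpc2. These counts say nothing of which sites carry a chain.

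RefSeq promoters (GRCm38.p6, 250 bases before to 50 after the start) were found for 6 of the 9 genes, Sdc1, Sdc3, Sdc4, Gpc2, Gpc3 and Gpc4. Those of Sdc4 and Sdc1, which were higher at 72 h, and of Gpc4, which was lower, are shown so that their makeup can be compared. Capitals mark GGGCGG, the motif TATAAG and the motif GGGAATTCC on either strand.
Sdc4, chr2:164443139-164443438, minus strand: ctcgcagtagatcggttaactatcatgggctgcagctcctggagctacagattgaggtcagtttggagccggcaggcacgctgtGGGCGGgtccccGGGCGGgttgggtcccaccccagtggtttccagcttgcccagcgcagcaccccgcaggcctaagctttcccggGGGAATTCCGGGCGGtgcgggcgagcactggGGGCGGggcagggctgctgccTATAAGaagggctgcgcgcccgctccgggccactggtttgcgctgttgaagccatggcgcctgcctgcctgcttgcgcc
Sdc1, chr12:8771146-8771445, plus strand: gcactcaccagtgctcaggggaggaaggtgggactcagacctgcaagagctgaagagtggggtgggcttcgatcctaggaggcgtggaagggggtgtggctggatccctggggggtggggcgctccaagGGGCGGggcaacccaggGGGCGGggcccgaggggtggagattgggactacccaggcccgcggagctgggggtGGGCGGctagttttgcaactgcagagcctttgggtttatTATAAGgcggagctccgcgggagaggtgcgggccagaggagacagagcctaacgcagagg
Gpc4, chrX:52164874-52165173, minus strand: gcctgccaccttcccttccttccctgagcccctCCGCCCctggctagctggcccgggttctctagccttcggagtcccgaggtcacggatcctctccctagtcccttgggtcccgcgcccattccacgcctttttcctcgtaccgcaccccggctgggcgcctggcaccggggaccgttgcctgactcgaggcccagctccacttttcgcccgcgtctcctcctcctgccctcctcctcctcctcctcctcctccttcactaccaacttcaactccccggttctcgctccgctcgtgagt
GGGCGG, the GC box bound by Sp1, occurred 4 times in Sdc4, 3 times in Sdc1 and once in Gpc4, and all 6 promoters held it, as did 35.7% of all 32851 promoters. The bases G and C made up 65.7% to 77.7% of these 6 windows. No comparison was made with promoters of like base content. TATAAG occurred in Sdc4 and Sdc1 and in 7.43% of all promoters. GGGAATTCC, a sequence of the NF-kappaB type that was searched for with the Sdc4 letters in view, occurred in Sdc4 and in 0.225% of all promoters. Neither the TATAAG motif nor the GGGAATTCC motif was found in the windows of Sdc3, Gpc2, Gpc3 or Gpc4. The AP-1 letters TGANTCA were found in none of the 6 windows and in 7.81% of all promoters. CATTCC, the TEAD type, was found in Gpc4 alone among the 6 and in 14.7% of all. All motifs were searched on both strands, and in Sdc4 the GGGAATTCC motif touches a GC box without overlapping it. A match is a string of letters and no shown binding site.

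Genes related to heparan sulfate were followed as 6 lists of 70 genes. They build, sulfate or edit the chain, are other proteoglycans, act with syndecans in the cytoplasm, or encode heparin-binding ligands. Over all tested genes the median log2 change was −0.02, and 38.5% were called. For chain linkage and polymerisation, 3 of 10 tested genes rose and 1 fell (median −0.05). These 40% called are close to the 38.5% of all tested genes. Ext1, a subunit of the polymerase that extends the chain, averaged 162 ± 13.2 CPM in 72 h capsules, against 53.0 ± 2.47 CPM in 0 h capsules (log2 change 1.62 ± 0.11, edgeR adjusted p = 3.75e-06). Its partner Ext2 averaged 63.7 ± 1.92 CPM in 72 h capsules, against 61.0 ± 3.44 CPM in 0 h capsules, with no call. Extl3, which starts the heparan sulfate chain, rose by 0.71 ± 0.15 on the log2 scale. Xylt1, a xylosyltransferase that begins the linker on the core protein, fell by 1.12 ± 0.18 on the log2 scale. This list had 2 falling genes when 72 h replicate 2 was left out, and 2 rising genes when any single library but 72 h replicate 3 was left out.

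Of 11 tested sulfation and epimerisation genes, 2 rose and none fell (median −0.02), and the other 9 were not called. The 18.2% called lie below the 38.5% of all tested genes. Hs6st1, which adds sulfate at the 6-O position, averaged 321 ± 34.1 CPM in 72 h capsules, against 142 ± 5.04 CPM in 0 h capsules (log2 change 1.18 ± 0.11, edgeR adjusted p = 2.39e-05). Hs2st1, the 2-O sulfotransferase, averaged 73.6 ± 19.7 CPM in 72 h capsules, against 42.7 ± 5.14 CPM in 0 h capsules (log2 change 0.79 ± 0.19, edgeR adjusted p = 0.00914). Its call was lost without 0 h replicate 1 (adjusted p = 0.0519), and then 1 gene of the list rose. Ndst1, the N-deacetylase and N-sulfotransferase needed in lens development, averaged 199 ± 16.5 CPM in 72 h capsules, against 191 ± 4.22 CPM in 0 h capsules, with no call. Without 72 h replicate 2 or 3, 1 gene of the list fell.

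Among genes that edit, cleave or shed the chains and their carriers, 6 of 9 tested rose and none fell (median 1.24), beside 21% called higher and 17.5% lower of all tested genes. Of the 6, Mmp9 and Hpse passed the filter on low counts through their 72 h libraries alone, the group in which they are high, and 5 rose under the stricter filter. The count of 6 and the median include both genes. The stricter filter also keeps genes that are high in 1 group alone, such as Mmp9 with 1, 1 and 13 counts at 0 h. Sulf2, an extracellular enzyme that removes 6-O sulfates, averaged 35.2 ± 4.71 CPM in 72 h capsules, against 2.81 ± 0.399 CPM in 0 h capsules (log2 change 3.64 ± 0.24, edgeR adjusted p = 3.08e-06). Its relative Sulf1, named here after its values were seen, averaged 525 ± 64.8 CPM in 72 h capsules, against 222.5 ± 4.55 CPM in 0 h capsules (log2 change 1.24 ± 0.11). Mmp14, a membrane metalloproteinase able to cleave syndecan ectodomains, stood at 251, 343 and 283 CPM in the 72 h libraries, against 10.8, 11.9 and 19.2 CPM in the 0 h libraries (log2 change 4.38 ± 0.25, edgeR adjusted p = 5.33e-06). The list also holds Timp3, an inhibitor of metalloproteinases. Timp3 averaged 306 ± 90.6 CPM in 72 h capsules, against 447 ± 39.2 CPM in 0 h capsules, with no call. This list had 1 falling gene without 72 h replicate 1 or 3. Markers of macrophages and monocytes were higher in the same libraries, with 224 to 401 CPM at 72 h and 32.0 to 49.9 CPM at 0 h, and their part in these levels was not tested.

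Of 7 tested cytoplasmic partners and effectors of syndecans, 5 rose and none fell (median 0.59), beside 21% called higher and 17.5% lower of all tested genes. Sdcbp, the PDZ protein syntenin that binds the tail shown above, averaged 78.8 ± 14.2 CPM in 72 h capsules, against 49.1 ± 2.39 CPM in 0 h capsules (log2 change 0.68 ± 0.15, edgeR adjusted p = 0.00503). Pdcd6ip, which encodes the ALIX protein that joins syntenin in exosome formation, averaged 217.5 ± 34.2 CPM in 72 h capsules, against 144.6 ± 9.30 CPM in 0 h capsules (log2 change 0.59 ± 0.13, edgeR adjusted p = 0.00460). The protein kinase C gene Prkca averaged 25.0 ± 11.0 CPM in 72 h capsules, against 39.7 ± 4.52 CPM in 0 h capsules, with no call. The number that rose was 3 without 72 h replicate 1, without 0 h replicate 1 or without 0 h replicate 3, and 2 fell without 72 h replicate 3.

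Heparin-binding ligands rose for 9 of 13 tested genes and fell for 3 (median 2.13), beside 21% called higher and 17.5% lower of all tested genes. Of the 9, Areg, Cxcl1, Cxcl12 and Pdgfb passed the filter through their 72 h libraries alone, the group in which they are high, and 6 rose under the stricter filter. The count of 9 and the median include these genes. The stricter filter also keeps genes that are high in 1 group alone, such as Pdgfb with 10, 10 and 11 counts at 0 h. Areg had no count at 0 h. At the bound that 3 counts per library set, its log2 change was 4.87, still above the median. The median of 2.13 could therefore not move, and its being unchanged is no check of the rise. Pdgfb, a platelet-derived growth factor chain, averaged 161 ± 42.1 CPM in 72 h capsules, against 0.860 ± 0.0114 CPM in 0 h capsules (log2 change 7.53 ± 0.25, edgeR adjusted p = 4.84e-08). Hbegf, heparin-binding EGF-like growth factor, averaged 320 ± 9.13 CPM in 72 h capsules, against 73.2 ± 10.6 CPM in 0 h capsules (log2 change 2.13 ± 0.12, edgeR adjusted p = 1.28e-06). Ptn, the secreted pleiotrophin that binds syndecans, averaged 33.8 ± 16.9 CPM in 72 h capsules, against 148 ± 16.8 CPM in 0 h capsules (log2 change −2.13 ± 0.39, edgeR adjusted p = 0.00716). Wnt7b fell by 0.58 ± 0.13 on the log2 scale. The classic heparin-binding fibroblast growth factors, named after their values were seen, went opposite ways. Fgf2 averaged 27.0 ± 1.62 CPM in 72 h capsules, against 3.26 ± 0.398 CPM in 0 h capsules (log2 change 3.05 ± 0.24), and Fgf1 averaged 8.36 ± 5.92 CPM in 72 h capsules, against 75.7 ± 3.54 CPM in 0 h capsules (log2 change −3.17 ± 0.63, edgeR adjusted p = 0.0125). The call of Fgf1 was lost without 72 h replicate 1 (adjusted p = 0.0503). Macrophage and monocyte markers, with 224 to 401 CPM at 72 h and 32.0 to 49.9 CPM at 0 h, were higher in the same libraries as Pdgfb and Hbegf, and their part was not tested.

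Among 8 other proteoglycans that carry or can carry heparan sulfate, 3 rose and 3 fell (median 0.18), beside 21% called higher and 17.5% lower of all tested genes. The list holds Gpc5, which passed the filter through its 0 h libraries alone, and Srgn, which passed through its 72 h libraries alone, in each case the group in which the gene is high. The matrix proteoglycan gene Agrn averaged 268 ± 37.2 CPM in 72 h capsules, against 74.6 ± 1.66 CPM in 0 h capsules (log2 change 1.84 ± 0.12). Perlecan (Hspg2), the main heparan sulfate proteoglycan of basement membranes, averaged 1664 ± 217.5 CPM in 72 h capsules, against 2983 ± 291 CPM in 0 h capsules (log2 change −0.84 ± 0.12, edgeR adjusted p = 0.000481). Tgfbr3, a TGF-beta co-receptor, fell by 0.77 ± 0.15 on the log2 scale. Srgn, the serglycin of blood cell granules, averaged 26.7 ± 9.90 CPM in 72 h capsules, against 0.299 ± 0.260 CPM in 0 h capsules (log2 change 6.40 ± 0.62), in the libraries in which macrophage and monocyte markers summed to 224 to 401 CPM at 72 h and 32.0 to 49.9 CPM at 0 h.

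**Figure D5:**
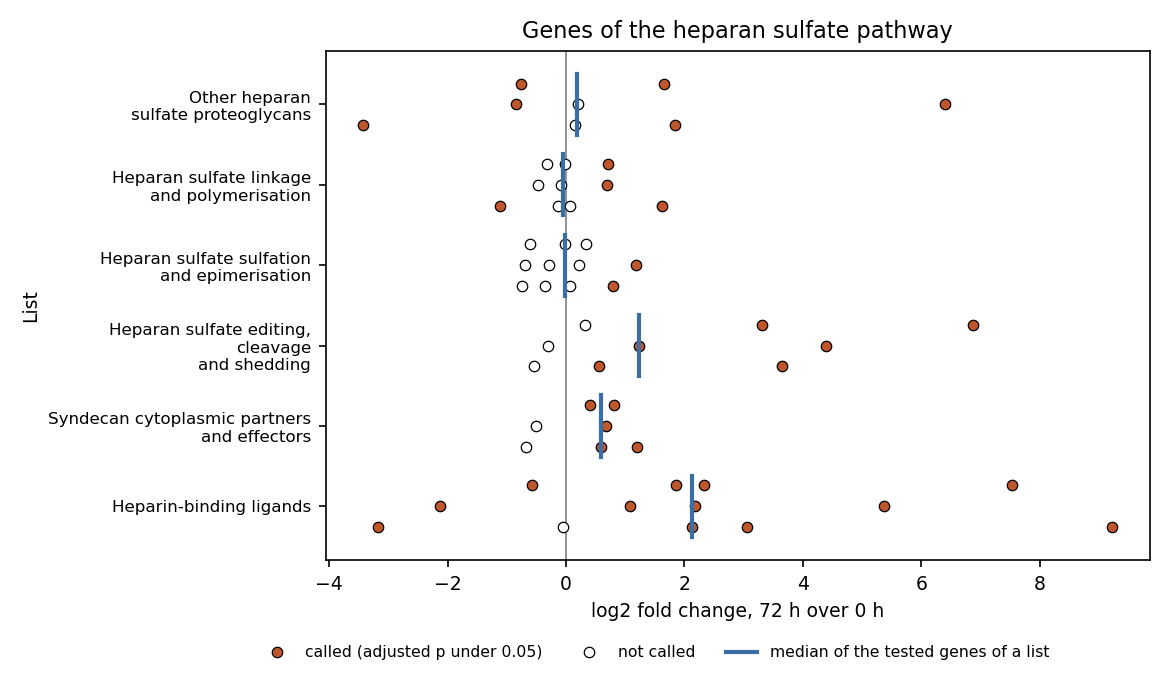
Log2 fold change of 72 h over 0 h for each tested gene of the 6 lists, with 1 point per gene, filled where called, and a blue line at the list median. The points of the editing and ligand lists reach farthest to the right, with list medians of 1.24 and 2.13. Both medians include genes that passed the filter through their 72 h libraries alone. Values of genes with no count at 0 h depend on the prior count of 0.125.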

How the data were processed

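RNA from 6 libraries (3 at 72 h and 3 at 0 h) was sequenced. Per the labels' protocols, the RNeasy Mini Kit gave the RNA and SMARTer Stranded Pico v2 the libraries. The authors deposited raw read counts per Ensembl gene, and the submitters' processing notes name HISAT2, HTSeq, edgeR and GRCm39 without versions, annotation or strand setting. The 5 lines of reads assigned to no gene (48.0% to 51.7% of reads at 72 h, 41.9% to 45.2% at 0 h) were left out.

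Symbols and exon lengths came from GENCODE M21, built on GRCm38, so no coordinates of counted genes are given. It matched 51947 of 56940 identifiers. Genes were filtered with filterByExpr (minimum count 10, total 15), scaled by TMM and tested with edgeR 4.0.16 (R 4.3.3), time as the only term, two-sided, with Benjamini-Hochberg adjustment over 15407 genes and a threshold of 0.05. The fit was run on simulated counts with a single dispersion for all genes and few, balanced changes. Those settings differ from these data, so the run says nothing of error rates here. CPM use TMM-adjusted library sizes, log2 changes a prior count of 0.125, and SE were derived from the F statistic. Count ratios add 2 counts, and floors of 3 counts cover counting error only.

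The members, the 6 pathway lists and 10 marker lists were chosen with earlier results of these data known. From each pathway list, the text names up to 2 called genes with the smallest p in each direction (17 genes), all members and Gpc5. Sulf1, Fgf1, Fgf2 and genes given as not called were chosen after their values were seen. Alternatives used other scalings, filters and tests (DESeq2 1.42.0, limma 3.58.1), a replicate block and each library left out. No label says that the libraries of a group came from separate animals beyond calling them biological replicates, so the spread behind each p-value is that between pools and may be partly technical. No batch is given in the labels. No library was a repeat of another (lowest chi-square over its degrees of freedom 7.08).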

Additional observations from a re-analysis of the deposited data

How the results depend on the processing

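All 7 calls among the members, and the lack of one for Gpc6, held under each of the 14 alternatives. Log2 changes ranged from 2.46 to 2.68 for Gpc1, 1.08 to 1.43 for Sdc1, 0.96 to 1.13 for Sdc3, 0.62 to 0.91 for Sdc4, −1.34 to −1.07 for Sdc2, −1.87 to −1.55 for Gpc3, −1.04 to −0.73 for Gpc4 and 0.21 to 0.45 for Gpc6, with adjusted p of at most 0.0339 for the called genes. Gpc2 had an adjusted p of 0.849 with no filter. Same-numbered libraries did not deviate together (correlations −0.0425, 0.0683 and −0.01). With 3 libraries per group, this cannot exclude that 72 h and 0 h pools came from the same mice. With the replicate block, 1 gene fell among syndecan partners in place of 0, and no call among the members changed. With 5 libraries, genes called numbered 2511 to 3646 higher and 1877 to 3265 lower. Leaving out 1 library gave 2 to 3 rising and 1 to 2 falling linkage genes. For sulfation it gave 1 to 2 rising and 0 to 1 falling genes, for editing 5 to 7 and 0 to 1. For partners it gave 3 to 5 rising and 0 to 2 falling genes. For other proteoglycans it gave 3 to 4 rising and 2 to 3 falling genes, for ligands 9 to 10 and 2 to 3. Upper quartile scaling, library size alone, no filter and the replicate block each gave 2 rising linkage genes in place of 3. Upper quartile scaling gave 1 falling sulfation gene, and DESeq2 and limma voom 1 falling editing gene each. Upper quartile scaling, library size alone, no filter and limma voom each gave 2 falling partners. The stricter filter gave 6 rising ligands in place of 9 and 5 rising editing genes in place of 6. Without division by length, the difference in share was −21.9 percentage points for Sdc2, 17.1 for Gpc1, 4.09 for Sdc4 (8.87 with it) and −0.475 for Gpc6. The cause of these shifts was not tested. Depth limits Gpc2 and Gpc3, with at most 9 and 157 counts per library.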
